A study of Homo sapiens with 13 samples.

Results

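AP-1 is a transcription factor built as a pair of basic leucine zipper (bZIP) proteins, 1 from the JUN family and 1 from the JUN, FOS or a related family. *FOS*, *FOSB*, *JUN*, *JUNB*, *EGR1*, *EGR3* and *IER2* are immediate early genes, which cells transcribe within minutes of a growth signal or a stress without first making new protein. At enhancers AP-1 is known to work together with the SWI/SNF chromatin remodelers, whose ATPase subunits are SMARCA4 and SMARCA2. The genes described are 10 of the 56831 in each table of gene levels: the FOS family (*FOS*, *FOSB*, *FOSL1*, *FOSL2*), the JUN family (*JUN*, *JUNB*, *JUND*), the zinc finger genes *EGR1* and *EGR3*, and *IER2*. They were picked by gene symbol, with earlier results of these data known, and each was found in both tables. On hg38 (GENCODE 44), *FOS* lies at chr14:75278826-75282230, *FOSB* at chr19:45467995-45475179, *FOSL1* at chr11:65892049-65900573, *FOSL2* at chr2:28392448-28417317, *JUN* at chr1:58776845-58784048, *JUNB* at chr19:12791486-12793315, *JUND* at chr19:18279694-18281622, *EGR1* at chr5:138465479-138469303 and *IER2* at chr19:13150411-13154911.

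RNA was sequenced from 2 established small cell lung cancer (SCLC) lines, H82 and H146, both labelled wild type. Treated cells received FHD-286, an inhibitor of the SMARCA4 and SMARCA2 ATPases, at 100 nM for 14 days, and the control cells were untreated, with no vehicle named in the labels. There were 3 untreated and 3 treated libraries of H82 and 3 untreated and 4 treated libraries of H146. The labels do not say whether replicates came from separate cultures, so the *p* values measure the spread between these libraries, which may be technical. Levels are TPM (transcripts per 1000000), which divide reads by gene length and scale every library to the same sum. They can be compared between genes, but they hold no read depth, so no counting interval is given. In such bulk RNA, a change in the number of cells that express a gene and a change in its RNA per cell cannot be told apart.

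All 6 neuroendocrine markers (*SYP*, *CHGA*, *NCAM1*, *INSM1*, *UCHL1*, *NEUROD1*) were above 0 in every library, with a summed level of 994 to 1089 TPM in untreated and 1096 to 1404 TPM in treated H82, and of 3310 to 3784 TPM in untreated and 2502 to 2678 TPM in treated H146. In this sum the treated libraries thus lay above the untreated ones in H82 and below them in H146. Gene by gene, in the limma fit described below, 2 markers rose and 3 fell of 6 tested in H82 (median log2 fold change -0.63, against -0.56 for all genes). Of 5 tested in H146, 0 rose and 2 fell (median -0.26, against 0.25). Of all genes tested, 13.1% rose and 45.5% fell in H82, and 32.5% rose and 15.5% fell in H146. The summed level of 5 fibroblast markers was 0.912 to 1.84 TPM in untreated and 7.05 to 33.9 TPM in treated H82, and 6.68 to 8.59 TPM in untreated and 16.6 to 32.0 TPM in treated H146. Those of 5 leukocyte and 4 endothelial markers stayed at or below 20.2 and 2.65 TPM. The part of other cells in the results was not tested. The treated libraries were not all alike. Over all genes, treated replicates 3 and 4 of H146 correlated at *r* = 0.987, against 0.933 to 0.938 with replicate 2. Treated replicate 1 of H146 correlated at 0.969 with replicate 2 and at 0.968 and 0.965 with replicates 3 and 4. Treated replicate 1 of H82 correlated at 0.946 and 0.952 with the other treated H82 libraries, which correlated at 0.978. Treated replicate 2 of H82 had 365 TPM of the genes *FOXA2*, *EPCAM* and *INSM1* in sum, against 36.1 and 37.8 TPM in the other treated H82 libraries.

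The promoters of the members are shown because they carry the elements through which growth signals are known to reach these genes. The windows run from 250 bases before to 50 bases after the RefSeq start (GRCh38.p14), and 8 of the 10 members had one. Letters searched on both strands were the core TGACGT of the cAMP response element (CRE), the full CRE TGACGTCA, which contains this core, the TPA response element TGACTCA to which AP-1 binds, the CRE-like letters TGACATCA, the TATA box TATAAA and the CCAAT box CCAAT. The CArG box, the site of serum response factor, was searched by its consensus. Stretches before the start are printed 5′ to 3′ on the strand of the gene, with matches in capitals.

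*FOS* (chr14:75278728-75278827, plus strand) and *FOSB* (chr19:45467896-45467995, plus strand) are set side by side because both fell in H82.
FOS: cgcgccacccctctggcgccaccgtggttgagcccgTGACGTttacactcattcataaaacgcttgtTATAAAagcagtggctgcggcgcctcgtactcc
FOSB: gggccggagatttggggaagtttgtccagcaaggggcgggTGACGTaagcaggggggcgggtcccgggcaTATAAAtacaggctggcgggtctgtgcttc
Both hold the CRE core, 64 bases before the start in *FOS* and 60 in *FOSB*, followed by a TATA box at 33 and 30 bases. Of all 35116 promoter windows, 7.98% held the core and 11.5% the TATA box. Of the 8 member windows, 5 held the core and 3 the TATA box. The core was also in *FOSL2* and *JUND*, and the TATA box in *JUNB*, and these genes rose in H82. *EGR1* held the core too and was called in neither direction in H82.

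The JUN family is shown because *JUNB* and *JUND* rose in H82 and *JUN* fell in H146. *JUN* lies at chr1:58784048-58784147 (minus strand), *JUNB* at chr19:12791386-12791485 (plus strand) and *JUND* at chr19:18281623-18281832 (minus strand).
JUN: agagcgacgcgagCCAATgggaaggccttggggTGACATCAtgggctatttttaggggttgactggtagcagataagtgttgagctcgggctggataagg
JUNB: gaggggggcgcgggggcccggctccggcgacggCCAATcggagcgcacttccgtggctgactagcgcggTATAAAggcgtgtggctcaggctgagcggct
JUND: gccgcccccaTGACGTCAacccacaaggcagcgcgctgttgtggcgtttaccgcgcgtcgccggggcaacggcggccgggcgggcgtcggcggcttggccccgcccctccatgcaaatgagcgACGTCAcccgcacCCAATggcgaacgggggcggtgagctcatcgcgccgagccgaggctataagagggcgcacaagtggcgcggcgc
All 3 hold a CCAAT box, as did 34.6% of all windows. *JUN* alone of the 8 members held TGACATCA (2.61% of all windows), and *JUNB* alone of the JUN family held a TATA box. *JUND* held the full CRE 200 bases before the start (1.85% of all windows) and a further core, on the other strand, at 87 bases.

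*EGR1* (chr5:138465339-138465478, plus strand) is shown for its CArG boxes.
EGR1: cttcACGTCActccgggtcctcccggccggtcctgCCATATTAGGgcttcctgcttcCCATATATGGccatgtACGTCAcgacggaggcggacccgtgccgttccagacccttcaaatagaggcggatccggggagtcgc
Its CArG boxes lie 105 and 83 bases before the start, between a pair of CRE cores on the other strand. It was the only member with a CArG box in this window, against 1.29% of all windows. *FOSL2* held a core at 66 bases and the TPA response element just after the start (4.95% of all windows), and none of the letters was in the window of *IER2*.

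**Figure D1:**
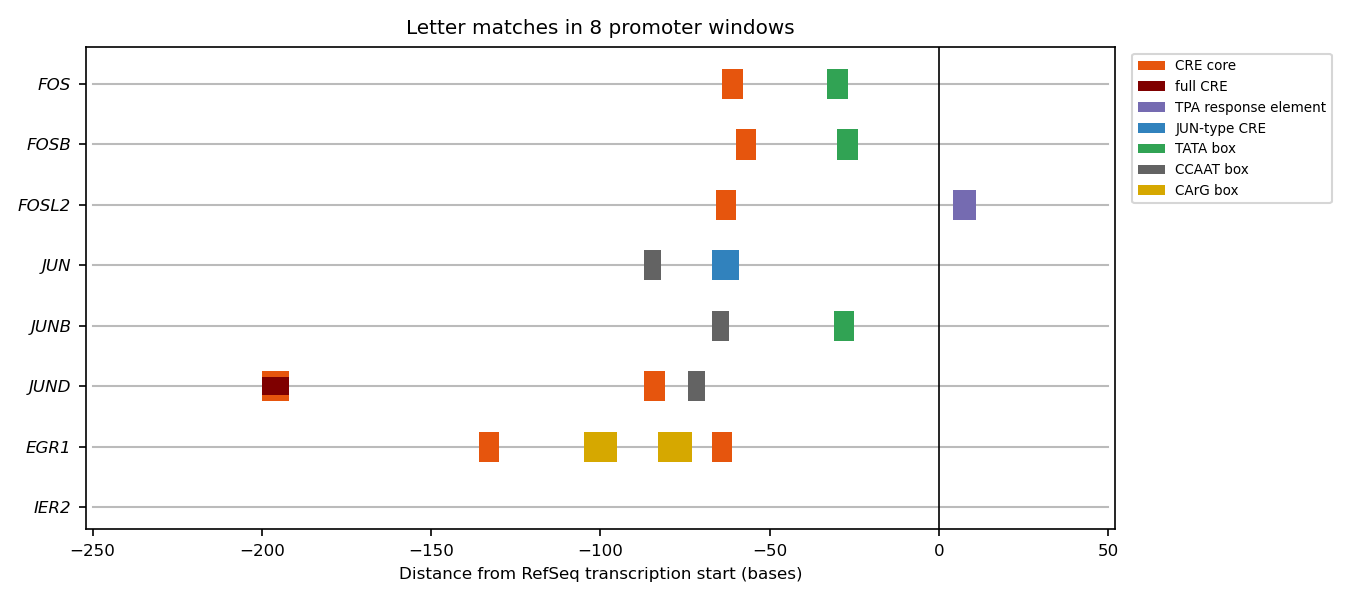
Positions of the letter matches (coloured boxes, to scale) in the promoter windows of 8 members, as the distance in bases from the RefSeq start (vertical line at 0). The CRE cores of *FOS*, *FOSB* and *FOSL2* lie 60 to 66 bases before the start, and the CArG boxes of *EGR1* lie at 105 and 83 bases.

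Levels differed widely between members before treatment. In untreated H82, *JUN* (85.6 ± 15.8 TPM, SD, n = 3) and *JUND* (65.1 ± 10.3 TPM) stood highest and overlapped each other, followed by *JUNB* (30.5 ± 7.65), *IER2* (20.7 ± 1.90), *FOS* (15.9 ± 1.91), *FOSB* (7.26 ± 0.451) and *EGR1* (4.01 ± 1.45), each of which lay below its upper neighbour in every library. *FOSL1* (0.536 ± 0.123) and *FOSL2* (0.481 ± 0.212) overlapped each other, and *EGR3* was last at 0.0141 TPM on average. In untreated H146 the order was *JUN* (993 ± 139 TPM), *JUND* (415 ± 60.7), *JUNB* (149 ± 0.511), *IER2* (64.1 ± 15.7), *FOSL2* (32.6 ± 6.04), *FOS* (15.7 ± 1.93), *EGR1* (2.99 ± 1.15), *FOSL1* (0.778 ± 0.295), *FOSB* (0.410 ± 0.124) and *EGR3* (0.131 ± 0.132), with no overlap between neighbours. The lines thus had like levels of *FOS*, while H146 had more *JUN*, *JUND*, *JUNB*, *IER2* and *FOSL2* and less *FOSB*. The lines came as separate tables and were not tested against each other in level.

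**Figure D2:**
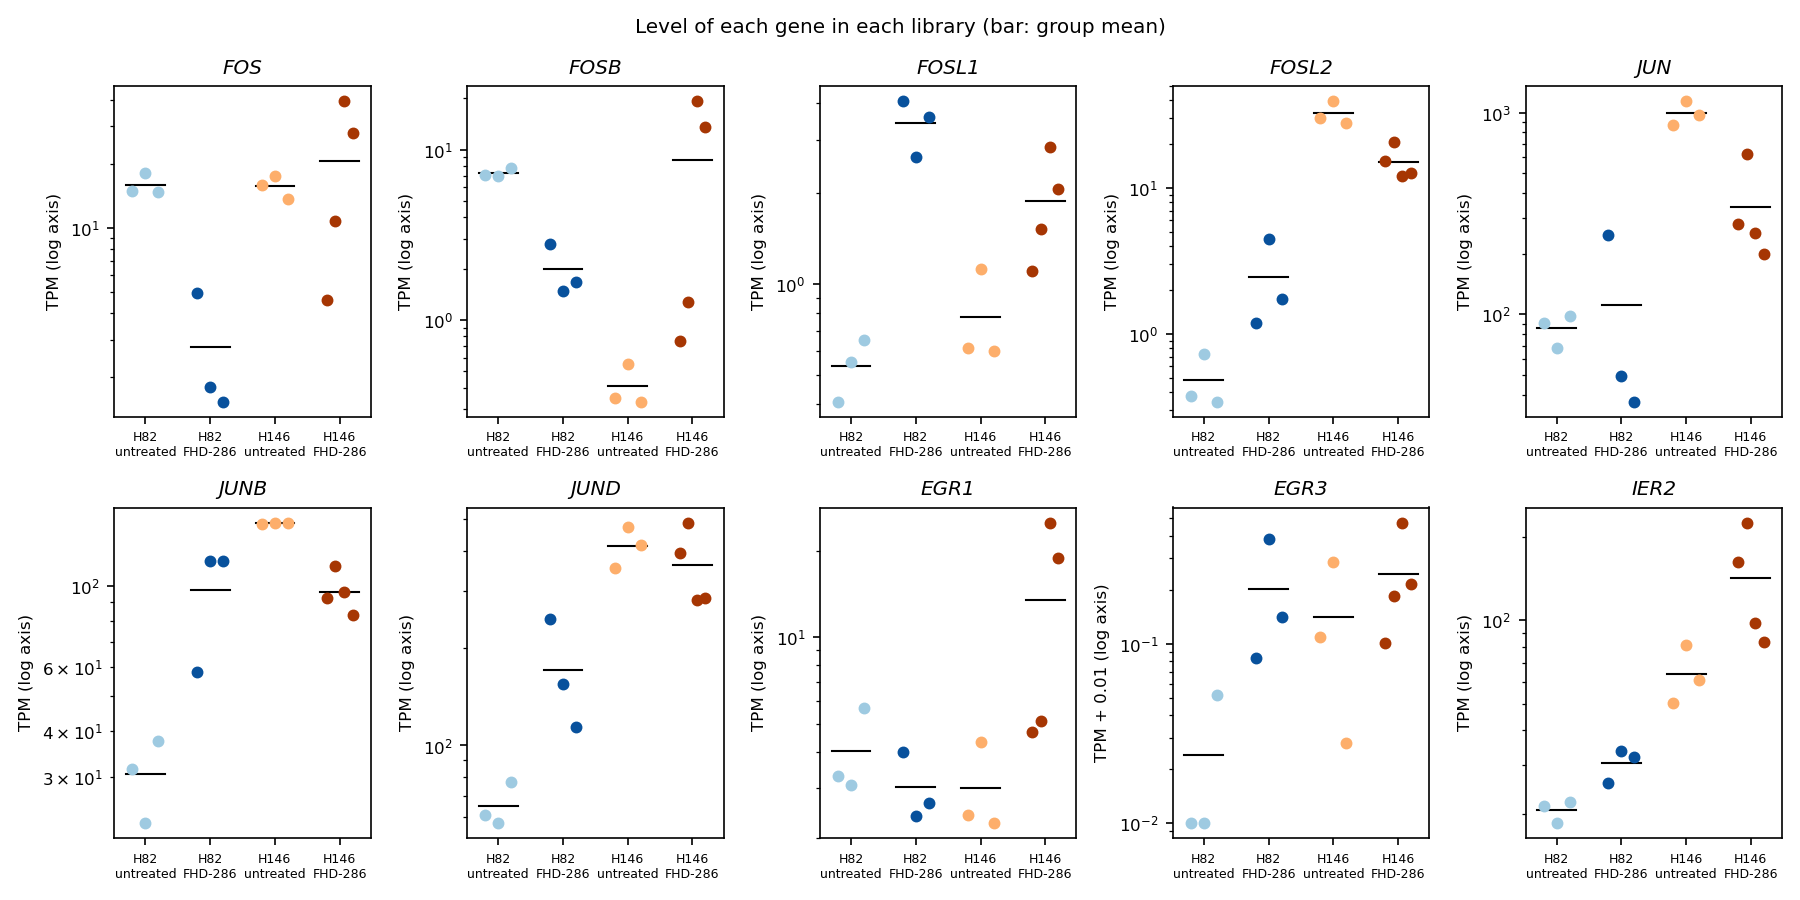
TPM of each member in each library (points, log axis; 0.01 was added for *EGR3*, which was at 0 in 2 libraries), with the group mean as a bar. In treated H146, *FOS*, *FOSB* and *EGR1* form a low pair of libraries and a high pair, and in treated H82 *JUN* is high in 1 library of 3.

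To ask how the members changed with SMARCA4/2 inhibition, treated and untreated libraries were compared within each line with limma on log2(TPM + 1) over all genes that reached 1 TPM in 3 or more libraries of the line. In both lines 9 of the 10 members passed this filter, and *EGR3* did not. In H82, 5 members rose (*FOSL1*, *FOSL2*, *JUNB*, *JUND*, *IER2*), 2 fell (*FOS*, *FOSB*) and 2 did not pass the threshold (*JUN*, *EGR1*). Of the 19770 genes tested in H82, 13.1% were called higher and 45.5% lower. The groups did not overlap for 7 of the 9 members, as for 67.8% of all genes tested. In H146, 3 members rose (*FOSL1*, *EGR1*, *IER2*), 3 fell (*FOSL2*, *JUN*, *JUNB*) and 3 did not pass (*FOS*, *FOSB*, *JUND*). Of the 19585 genes tested in H146, 32.5% were called higher and 15.5% lower, and the groups did not overlap for 6 of the 9 members and for 52.9% of all genes.

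The scaling between libraries bears on these counts, and the libraries also differed in make-up. Genes at 1 TPM or more numbered 21227 to 21772 in untreated and 15554 to 16633 in treated H82. In H146 they numbered 17476 to 17965 in untreated and 18778 to 19309 in treated libraries. Mitochondrial genes held 22.1% to 24.1% of the TPM in untreated and 12.3% to 14.9% in treated H82. In H146 they held 7.56% to 8.86% in untreated and 3.82% to 11.4% in treated libraries. The part of this in the changes was not tested. The median log2 fold change of all genes tested was -0.56 in H82 and 0.25 in H146, and scaling by the median of ratios brought it to -0.14 and -0.02. Higher and lower calls over all genes then went from 2588 and 8996 to 4793 and 6499 in H82, and from 6356 and 3033 to 4165 and 4917 in H146. Under quantile normalization they were 5070 and 5551 in H82 and 4648 and 4103 in H146. The median over the 9 members tested was 0.54 in H82 and 0.01 in H146. In H82, 7 members were called under the median of ratios, with the same counts in each direction, and 6 under quantile normalization, where *FOSB* was lost (log2 fold change -0.53, adjusted *p* = 0.0571). In H146, 3 were called under either scaling, all lower, and the rises of *FOSL1*, *EGR1* and *IER2* no longer passed.

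**Figure D3:**
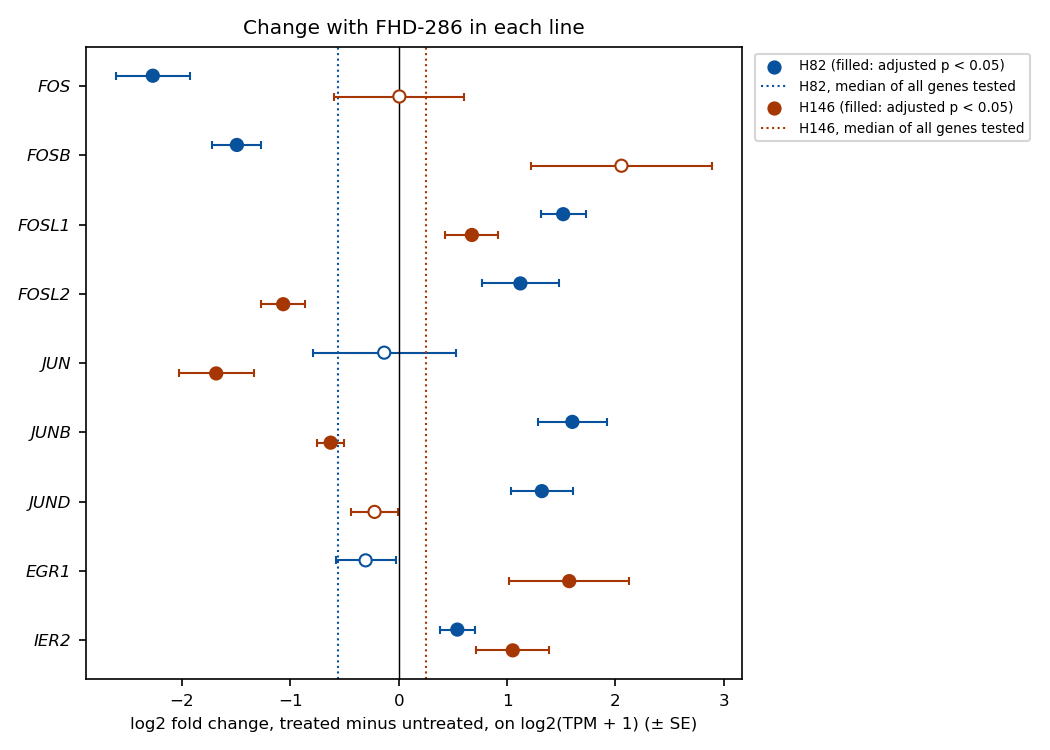
Log2 fold change of each tested member on the log2(TPM + 1) scale, treated minus untreated, with its SE as a bar. Dotted lines mark the median of all genes tested (-0.56 in H82, 0.25 in H146). *FOSL2* and *JUNB* lie on opposite sides of 0 in the 2 lines, both with filled points.

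**Figure D4:**
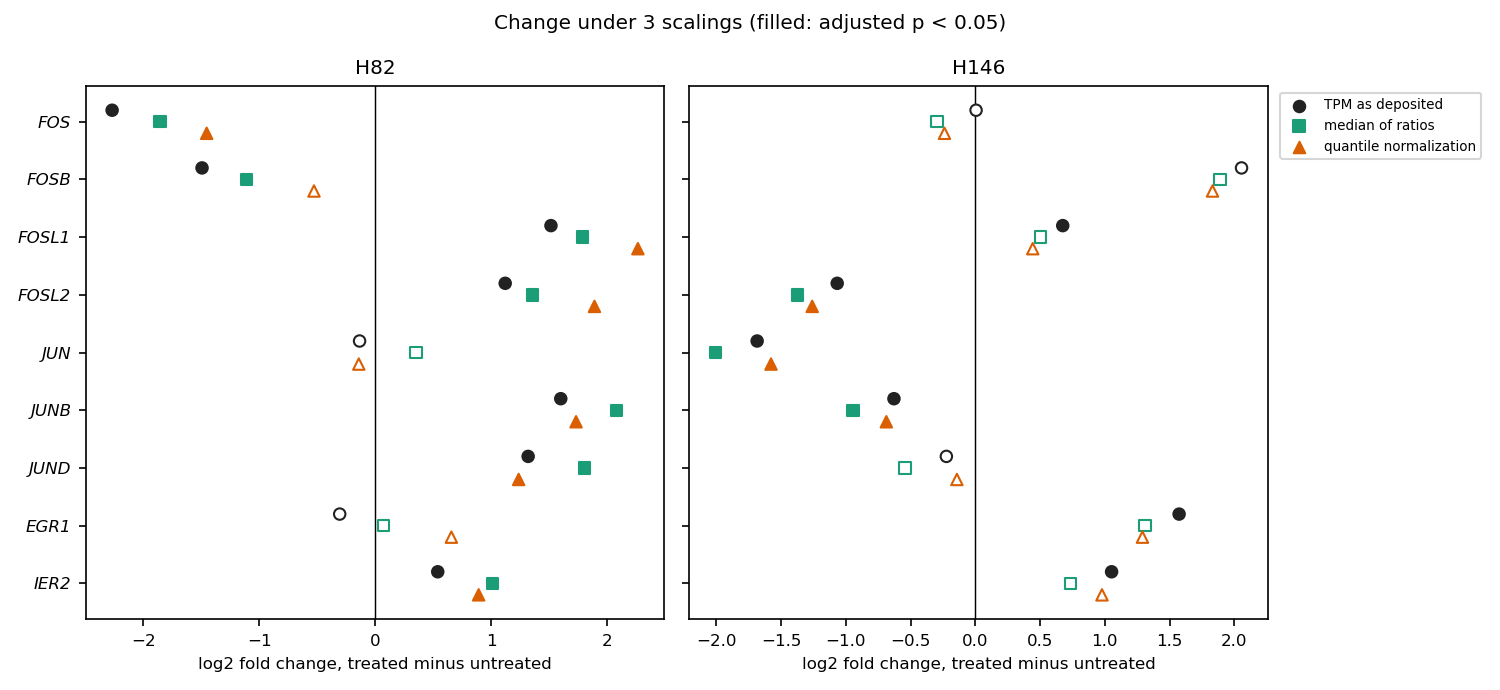
Log2 fold change of the tested members under 3 scalings between libraries, with filled marks for an adjusted *p* under 0.05. The falls of *FOSL2*, *JUN* and *JUNB* in H146 are filled under all 3, and *JUN* and *EGR1* in H82 change sign and are filled under none.

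*FOS*, the founding member of its family, was at 14.9, 18.1 and 14.7 TPM in untreated H82 and at 4.98, 1.80 and 1.54 TPM in treated H82. Every treated library lay below every untreated one. *FOS* fell by 2.27 on the log2 scale (SE 0.34, adjusted *p* = 0.00149), or by 1.71 relative to the median gene. In H146, *FOS* was at 15.9, 17.5 and 13.7 TPM in untreated and at 4.58, 10.8, 39.4 and 28.01 TPM in treated libraries. Treated replicates 1 and 2 thus lay below the untreated range and replicates 3 and 4 above it. The mean log2 fold change was 0.01 (SE 0.60, adjusted *p* = 0.995), and its sign turned to -0.29 under the median of ratios.

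*FOSB*, an immediate early paralog of *FOS*, was at 7.04, 6.96 and 7.78 TPM in untreated and 2.80, 1.47 and 1.68 TPM in treated H82. It fell by 1.49 (SE 0.23, adjusted *p* = 0.00148). In untreated H146 it was at 0.348, 0.553 and 0.330 TPM, and in treated H146 at 0.752, 1.27, 19.3 and 13.5 TPM. All 4 treated libraries were above the untreated ones, with replicates 3 and 4 far higher than the others. The log2 fold change was 2.06 (SE 0.84) and did not pass the threshold (adjusted *p* = 0.0722). Without treated replicate 1 or without treated replicate 2 it passed (2.63, adjusted *p* = 0.0268, and 2.51, adjusted *p* = 0.0251). Without treated replicate 3 or 4 it was 1.46 (adjusted *p* = 0.138) and 1.62 (adjusted *p* = 0.144), and without any 1 of the untreated libraries adjusted *p* was 0.136 to 0.175.

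*FOSL1* encodes FRA1, a FOS protein without the strong activation domain of FOS. It was at 0.407, 0.550 and 0.651 TPM in untreated and 4.05, 2.65 and 3.58 TPM in treated H82. It rose by 1.52 on the log2 scale (SE 0.21, adjusted *p* = 0.00101), with no overlap between the groups. Its levels in H146 were 0.614, 1.12 and 0.601 TPM in untreated and 1.11, 1.52, 2.84 and 2.07 TPM in treated libraries, where the lowest treated library lay just under the highest untreated one. This rise of 0.67 (SE 0.24) was close to the threshold (adjusted *p* = 0.0484) and was lost without each untreated library in turn (adjusted *p* = 0.142, 0.0555 and 0.144) and without treated replicate 3 or 4 (0.109 and 0.0961).

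*FOSL2* encodes FRA2, the other FOS-related antigen. Its levels in H82 were 0.375, 0.725 and 0.343 TPM in untreated and 1.19, 4.48 and 1.75 TPM in treated libraries, the highest being treated replicate 2, the library high in *FOXA2*, *EPCAM* and *INSM1*. It rose by 1.12 (SE 0.36, adjusted *p* = 0.0303). Without that library the change was 0.74 and only just passed (adjusted *p* = 0.0498). It did not pass without treated replicate 3 (adjusted *p* = 0.0509) or without any 1 of the untreated libraries (0.0548 to 0.0867). Its levels in H146 were 30.3, 39.4 and 28.1 TPM in untreated and 15.2, 20.7, 12.1 and 12.8 TPM in treated libraries, with no overlap. There it fell by 1.07 (SE 0.21, adjusted *p* = 0.00364).

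*JUN*, the main partner of FOS proteins, was at 90.9, 67.8 and 98.1 TPM in untreated H82. Its treated libraries were at 248, 49.3 and 36.9 TPM, so that replicate 1 lay above and the others below every untreated library. The log2 fold change was -0.13 (SE 0.66, adjusted *p* = 0.875). Without treated replicate 1, *JUN* fell by 0.97 (adjusted *p* = 0.00593). In the same library *ATF3*, a stress-induced bZIP gene, stood at 226 TPM against 13.4 and 10.0 TPM in the other treated H82 libraries, and the summed level of 8 heat shock genes was 2390 TPM against 4945 and 5487 TPM. The part of these differences in the level of *JUN* was not tested. In H146, *JUN* was at 864, 1141 and 975 TPM in untreated and 282, 623, 253 and 198 TPM in treated libraries. It fell by 1.68 (SE 0.35, adjusted *p* = 0.00485), with no overlap and with the highest treated value in replicate 2.

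*JUNB*, often described as an antagonist of JUN on shared targets, was at 31.5, 22.4 and 37.6 TPM in untreated and 58.0, 117 and 117 TPM in treated H82. It rose by 1.60 (SE 0.32, adjusted *p* = 0.00467). In H146 the untreated libraries lay close together at 148, 149 and 149 TPM, and the treated ones were at 92.5, 113, 96.2 and 83.2 TPM. *JUNB* fell there by 0.63 (SE 0.12, adjusted *p* = 0.00408). No library overlapped between the groups in either line.

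*JUND*, the least inducible member of the JUN family, was at 61.0, 57.5 and 76.9 TPM in untreated and 246, 155 and 114 TPM in treated H82. It rose by 1.32 (SE 0.29, adjusted *p* = 0.00655). Its levels in H146 were 353, 475 and 415 TPM in untreated and 394, 488, 281 and 285 TPM in treated libraries, which overlapped. The log2 fold change in H146 was -0.22 (SE 0.21, adjusted *p* = 0.414).

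*EGR1*, a zinc finger gene that responds to ERK signaling, was at 3.30, 3.06 and 5.68 TPM in untreated and 3.998, 2.39 and 2.64 TPM in treated H82. The groups overlapped, and the log2 fold change was -0.31 (SE 0.28, adjusted *p* = 0.373), turning to 0.07 under the median of ratios and 0.66 under quantile normalization. Its levels in H146 were 2.40, 4.31 and 2.25 TPM in untreated and 4.69, 5.09, 25.0 and 18.9 TPM in treated libraries. It rose by 1.57 (SE 0.55, adjusted *p* = 0.0440). Treated replicates 3 and 4 were again the highest. Without either of them the rise did not pass (adjusted *p* = 0.0826 and 0.0909), nor without untreated replicate 1, 2 or 3 (0.123, 0.0641 and 0.142).

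*IER2*, a small nuclear immediate early protein, was at 21.4, 18.5 and 22.1 TPM in untreated and 25.9, 33.8 and 32.1 TPM in treated H82. It rose by 0.54 (SE 0.16, adjusted *p* = 0.0240). Its levels in H146 were 50.2, 81.1 and 60.9 TPM in untreated and 162, 225, 97.5 and 83.5 TPM in treated libraries, with no overlap, and rose by 1.05 (SE 0.34, adjusted *p* = 0.0313). Here replicates 1 and 2 were the high ones, the reverse of *FOS*, *FOSB* and *EGR1*. Neither rise held in every fit with 1 library left out: in H82 adjusted *p* was 0.0577 to 0.0800 in 5 of 6 such fits, and in H146 the rise was lost without untreated replicate 1 or 3 or treated replicate 1 (0.113, 0.0987 and 0.0757).

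*EGR3*, a relative of *EGR1*, was below the filter in both lines. In H82 it was listed at 0, 0 and 0.0422 TPM in untreated and at 0.0738, 0.372 and 0.131 TPM in treated libraries. The exact two-sided permutation test gave *p* = 0.1, the smallest that 3 against 3 libraries allow, so this design could not reach 0.05. In H146 its 3 untreated libraries lay between 0.0180 and 0.277 TPM and its 4 treated libraries between 0.0905 and 0.464 TPM, which overlapped (exact permutation *p* = 0.457, with 0.0286 as the smallest possible).

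The effect of treatment differed between the lines for 7 of the 9 members in 1 fit over all 13 libraries, as it did for 60.2% of the 23676 genes tested. Against H82, the effect in H146 was higher for *FOS* (difference 2.28, SE 0.80, adjusted *p* = 0.0260), *FOSB* (3.55, SE 1.03, adjusted *p* = 0.00997) and *EGR1* (1.88, SE 0.71, adjusted *p* = 0.0366). It was lower for *JUNB* (-2.23, SE 0.35, adjusted *p* = 0.000161), *FOSL2* (-2.19, SE 0.42, adjusted *p* = 0.000777), *JUND* (-1.54, SE 0.38, adjusted *p* = 0.00372) and *FOSL1* (-0.84, SE 0.31, adjusted *p* = 0.0341). *JUN* (-1.55, SE 0.79, adjusted *p* = 0.109) and *IER2* (0.51, SE 0.43, adjusted *p* = 0.316) did not pass. *JUNB* and *FOSL2* were the members called in opposite directions in the 2 lines.

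These differences were not equally stable. With each of the 13 libraries left out in turn, those of *JUNB*, *FOSL2*, *JUND* and *FOSB* passed every time. Each such fit kept H146 treated replicate 3 or 4, where *FOSB* was far higher (19.3 and 13.5 TPM) than in the other treated libraries. These fits thus cannot show whether the difference of *FOSB* rests on that pair. That of *EGR1* was lost in 8 of 13 such fits (adjusted *p* = 0.0521 to 0.0876), among them those without H146 treated replicate 3 (0.0554) or 4 (0.0658) and without H82 treated replicate 2 (0.0720). That of *FOSL1* was lost in 7 (0.0527 to 0.0889), among them those without H82 treated replicate 1 (0.0684) and H146 treated replicate 2 (0.0527). That of *FOS* was lost in 4 (0.0547 to 0.0597), 1 of them without H82 treated replicate 2 (0.0559). *JUN* passed without H146 treated replicate 2 (-1.89, adjusted *p* = 0.0462) or H82 treated replicate 3 (-2.07, adjusted *p* = 0.0342).

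The median difference over all genes was 0.73, so that the members with a lower effect in H146 went against the majority. Higher and lower calls between the lines were 11019 and 3235 over all genes, 7349 and 6192 under the median of ratios, and 6251 and 6097 under quantile normalization. The differences of *JUNB*, *FOSL2*, *JUND* and *FOSL1* passed under both other scalings. That of *FOSL1* was lost with a pseudocount of 0.1 (adjusted *p* = 0.0501), with no filter (0.0686) and with library weights (0.0926), where the other 3 passed. Those of *FOS* (adjusted *p* = 0.105 and 0.203) and *EGR1* (0.140 and 0.468) did not pass under the median of ratios or quantile normalization. That of *FOSB* passed under the median of ratios and not under quantile normalization (0.0213 and 0.0686), and that of *JUN* passed under the median of ratios (0.0297).

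The make-up of each family within a library is not changed by a factor that scales the whole library, such as the median of ratios, but quantile normalization can change it. In untreated H82, *FOS* made up 62.7% to 68.7% and *FOSB* 26.4% to 33.1% of the FOS family TPM, while *FOSL1* and *FOSL2* were at most 2.77% and 2.75%. In treated H82, *FOS* was at 38.3%, 17.3% and 18.0%, *FOSL1* at 31.1%, 25.5% and 41.9%, and *FOSL2* at 9.11%, 43.1% and 20.4%. None of these shares overlapped the untreated ones. The summed FOS family went from 24.2 ± 1.91 TPM (SD, n = 3) to 10.7 ± 2.25 TPM (n = 3) and the summed JUN family from 181 ± 32.5 to 380 ± 151 TPM. JUN family transcripts per FOS family transcript were 8.08, 5.61 and 9.05 in untreated and 42.4, 30.8 and 31.3 in treated H82.

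In untreated H146, *FOSL2* made up 64.3% to 67.3% of the FOS family and *FOS* 29.9% to 33.7%. In treated H146, *FOSL2* was at 70.3%, 60.3%, 16.5% and 22.6% and *FOS* at 21.1%, 31.6%, 53.5% and 49.7% in replicates 1 to 4. Replicates 1 and 2 were thus close to untreated cells in *FOSL2* share, and replicates 3 and 4 were not. The share of *FOSB* was 0.738% to 0.943% in untreated and 3.47%, 3.69%, 26.2% and 24.0% in treated libraries. In the JUN family, *JUN* went from 63.3% to 64.7% in untreated libraries to 36.7%, 50.8%, 40.1% and 35.01% in treated ones, and *JUND* from 25.9% to 27.0% to between 39.9% and 51.3%. The groups did not overlap for either share. The summed JUN family was 1556 ± 200 TPM (n = 3) in untreated and 797 ± 297 TPM (n = 4) in treated H146, and the summed FOS family was 49.5 ± 8.24 and 46.5 ± 23.1 TPM. JUN family transcripts per FOS family transcript were 29.0, 30.1 and 36.1 in untreated and 35.4, 35.7, 8.56 and 10.0 in treated H146, where replicates 1 and 2 lay within the untreated range and replicates 3 and 4 below it.

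**Figure D5:**
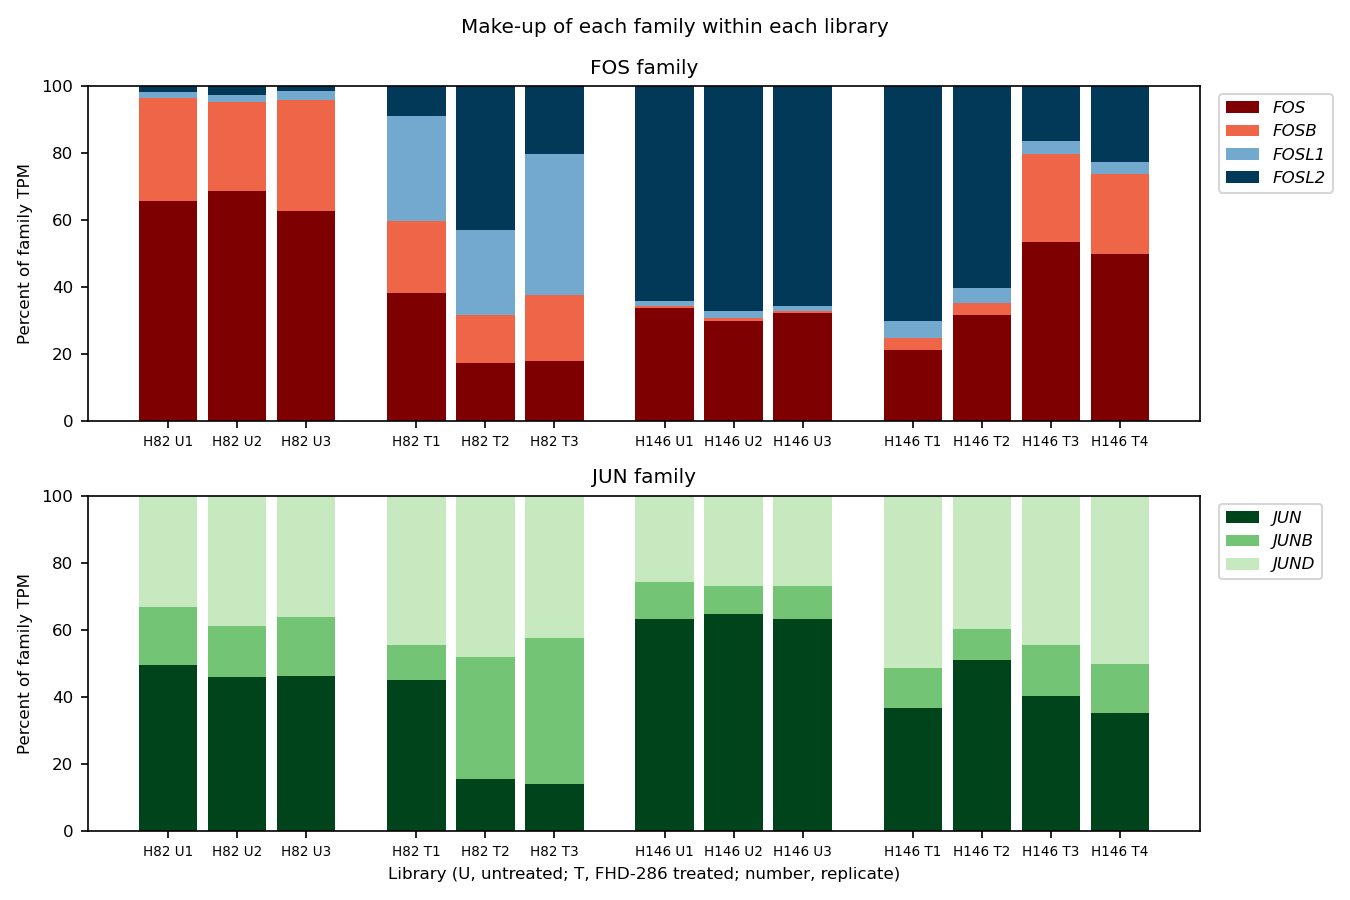
Percent of the summed FOS family TPM (top) and JUN family TPM (bottom) contributed by each member in every library (stacked bars to 100%). *FOSL1* takes 25.5% to 41.9% of the FOS family in treated H82, and *JUND* takes 39.9% to 51.3% of the JUN family in treated H146.

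The genes whose levels ran most like those of 3 members were sought over all 13 libraries among 15670 other genes. These libraries share 4 groups, so the correlations describe the pattern and carry no test. For *FOS* they were *AQP1* (a water channel, *r* = 0.936), *HSPA6* (a strictly stress-induced HSP70 gene, *r* = 0.921) and *FBXO42* (*r* = 0.908). *HSPA6* was at 130 to 164 TPM in untreated and 8.62, 0.761 and 2.10 TPM in treated H82. In H146 it was at 62.6, 52.2 and 58.4 TPM in untreated libraries. Treated replicates 1 and 2 of H146 lay below these, at 5.47 and 5.16 TPM, and replicates 3 and 4 above them, at 321 and 234 TPM. The treated H146 libraries high in *FOS*, *FOSB* and *EGR1* were thus the ones high in *HSPA6*, and the part of a stress response in those levels was not tested. For *JUN* the genes were *BBC3* (encoding the apoptosis protein PUMA, *r* = 0.987), *LETMD1* (*r* = 0.980) and *OPTN* (the autophagy receptor optineurin, *r* = 0.980). *BBC3* was at 28.6, 6.28 and 5.98 TPM in treated H82, with the same replicate high as for *JUN*. For *EGR1* they were *ATXN7L1* (*r* = 0.905), *NKIRAS2* (*r* = 0.902) and *SWSAP1* (*r* = 0.900).

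Genes around the members were counted next. The shares of all genes tested to set beside each list were 13.1% higher and 45.5% lower in H82. In H146 they were 32.5% higher and 15.5% lower. The first list was 14 other bZIP partners. Of 9 tested in H82, 1 rose and 5 fell (median -0.62). The largest fall was that of *NRL*, the rod photoreceptor factor of the MAF family, from 117 ± 10.3 to 1.10 ± 0.223 TPM (-5.81, SE 0.16, adjusted *p* = 2.16e-05), and the rise was that of *BATF3* (0.62, adjusted *p* = 0.0310). This rise was lost without any 1 library other than treated replicate 1 (adjusted *p* = 0.0736 to 0.0968). The excess of falls in H82 was not kept under other scalings: 1 rose and 1 fell under the median of ratios, and 2 rose and 2 fell under quantile normalization (median 0.09). Of 10 tested in H146, 3 rose and 3 fell (median -0.15). Under the median of ratios 2 rose and 5 fell, and under quantile normalization 0 rose and 5 fell. There were also 0 rises without untreated replicate 2 or 3. *ATF3* fell from 340 ± 27.0 TPM (n = 3) to 50.3 ± 37.1 TPM (n = 4) (-2.95, SE 0.41, adjusted *p* = 0.000739). In H82 the log2 fold change of *ATF3* was -0.56 (adjusted *p* = 0.670), and it fell by 1.95 without treated replicate 1 (adjusted *p* = 0.000217).

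Of 27 other immediate early genes, 24 were tested in H82, where 2 rose and 8 fell (median -0.46), and 23 in H146, where 3 rose and 7 fell (median 0.18). *ZFP36L1*, which encodes a protein that destabilizes AU-rich mRNA, was the largest rise in both lines. It went from 6.69 ± 0.430 to 15.5 ± 2.91 TPM in H82 (1.09, SE 0.19, adjusted *p* = 0.00266). In H146 its mean went up from 3.28 ± 0.758 to 72.1 ± 9.38 TPM (4.10, SE 0.17, adjusted *p* = 2.90e-06). The largest falls were those of *BTG2*, an antiproliferative p53 target, in H82 (-2.25, adjusted *p* = 0.000222), and of *KLF6*, a zinc finger factor, in H146 (-1.55, adjusted *p* = 0.0142). *KLF6* also fell in H82 (-1.98, adjusted *p* = 0.000150). The medians of this list lay near those of all genes tested (-0.56 in H82 and 0.25 in H146). In H82 the split moved with the scaling: 4 rose and 5 fell under the median of ratios, and 6 and 6 under quantile normalization. In H146 more fell than rose under each scaling, with 3 and 10 under the median of ratios and 3 and 8 under quantile normalization. Of all genes tested in H146, 32.5% rose and 15.5% fell.

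All 21 kinases and factors upstream of the members were tested. In H82, 1 rose and 10 fell (median -0.36), and in H146, 6 rose and 4 fell (median -0.02). Of all genes tested in H82, 13.1% rose and 45.5% fell (median -0.56), so the share of falls in this list was near that of all genes. Of all genes tested in H146, 32.5% rose and 15.5% fell (median 0.25). The rise in H82 was that of the ERK kinase gene *MAP2K2* (0.63, adjusted *p* = 0.00804), and the largest fall was that of *ELK4*, a partner of serum response factor (-1.69, adjusted *p* = 0.000492). In H146 another such partner, *ELK3*, rose (1.66, adjusted *p* = 0.000387), and the ERK-activated kinase gene *RPS6KA1* fell (-1.49, adjusted *p* = 0.000372). Under the median of ratios 3 rose and 6 fell in H82, and 3 rose and 11 fell in H146.

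Of 16 feedback inhibitors of MAP kinase and EGR signaling, 12 were tested in H82, where 4 rose and 3 fell (median -0.03). All 16 were tested in H146, where 4 rose and 5 fell (median 0.16). *SPRY1*, an inhibitor of receptor tyrosine kinase signaling, rose most in both lines, by 0.91 in H82 (SE 0.23, adjusted *p* = 0.0125) and by 2.05 in H146 (SE 0.17, adjusted *p* = 7.68e-05). The phosphatase gene *DUSP5* fell most in H82 (-1.67, adjusted *p* = 0.00792), and *DUSP10*, whose product acts on the stress kinases JNK and p38, fell most in H146 (-2.92, SE 0.37, adjusted *p* = 0.000513).

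Of 14 classical AP-1 targets, 6 were tested in H82, where 3 rose and 1 fell (median 0.98), and 10 in H146, where 2 rose and 3 fell (median -0.33). The cyclin gene *CCND1* rose most in both lines, from 0.332 ± 0.0811 to 12.2 ± 6.93 TPM in H82 (3.13, SE 0.45, adjusted *p* = 0.00128). In H146 its mean went up from 0.797 ± 0.280 to 2.12 ± 0.269 TPM (0.80, SE 0.18, adjusted *p* = 0.00737). The urokinase receptor gene *PLAUR* fell in H82 (-1.07, adjusted *p* = 0.0108), and this was lost under the median of ratios (-0.66, adjusted *p* = 0.0786) and under quantile normalization (-0.21, adjusted *p* = 0.480). The adhesion receptor gene *CD44* fell in H146 from 11.1 ± 1.67 to 2.34 ± 1.47 TPM (-1.95, SE 0.32, adjusted *p* = 0.00166).

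Because handling of cells can induce both immediate early and heat shock genes, 8 heat shock genes were set beside the members. In each line 5 fell and 0 rose by limma, with 0 higher at an unadjusted *p* under 0.05 (median -1.45 in H82 and -1.54 in H146), and 0 rose under the median of ratios or quantile normalization. In H82, 2 rose without treated replicate 1 and 2 with library weights, and in H146, 1 rose without treated replicate 2 and 1 with library weights. The largest falls were those of *HSPA1A* in H82 (-2.23, adjusted *p* = 0.000255) and *HSPA1B* in H146 (-2.49, adjusted *p* = 0.000916), near-identical genes between which reads cannot be assigned with certainty. The summed level of all 8 heat shock genes was 6133 to 6625 TPM in untreated and 2390 to 5487 TPM in treated H82. In H146 it was 6602 to 7480 TPM in untreated and 2163 to 4125 TPM in treated libraries. Within treated H146 it was 2416 and 2163 TPM in replicates 1 and 2 and 4125 and 4043 TPM in replicates 3 and 4, the libraries high in *FOS*, *FOSB* and *EGR1*. Its part in the levels of the members was not tested.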

How the data were processed

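RNA-seq of 13 libraries (H82, 3 untreated and 3 treated; H146, 3 untreated and 4 treated) was analysed. Per the submitters' processing notes and the paper's methods, reads were trimmed with Trim Galore 0.4.4, mapped to hg38 and counted per gene with STAR and GENCODE 28, and compared with DESeq2. The authors deposited TPM, 1 table per line, each library summing to 1000000. TPM keep no read depth, so precision comes from the spread between libraries. Groups follow the labels. Each line was fitted with limma 3.58.1 in R 4.3.3 (lmFit, eBayes with trend) on log2(TPM + 1), for genes that reached 1 TPM in 3 or more of its libraries. Two-sided *p* values were adjusted by Benjamini-Hochberg over all genes tested, and the threshold was 0.05. The pseudocount understates changes of low genes. The difference between lines was the interaction over 13 libraries. *EGR3* was tested by exact permutation (scipy 1.17.1). The fit was tested on simulated data.

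The members and gene lists were chosen with earlier results of these data known. Named genes were the members, the largest rise and fall past the threshold in each list and line, and the 3 genes correlating best with *FOS*, *JUN* and *EGR1*. Alternatives were a pseudocount of 0.1, no filter, a mean TPM above 2, median of ratios (medians of TPM ratios), quantile normalization, a replicate block, eBayes without trend, library weights, and each library left out. A result for 1 gene that this rule picks is not reported here. Promoter sequences are RefSeq's on GRCh38.p14. Promoters of *FOSL1* and *EGR3* and all proteins were not used here.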

Additional observations from a re-analysis of the deposited data

Results flagged for a closer look

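Single libraries that stood apart were sought in the only group of more than 3 libraries, treated H146, for 29 genes that the rule for named genes picked. Chance alone marks about 1 in 20 such groups, and 6 of 29 were marked. None was a member, and in all 6 the library was treated replicate 2. *ATF3* was at 106 TPM there against 27.8 to 35.1 TPM in the other treated libraries, *KLF6* at 161 TPM against 44.4 to 49.8 TPM, *DUSP10* at 16.4 TPM against 4.64 to 6.48 TPM, *ELK4* at 18.5 TPM against 6.72 to 8.09 TPM and *SPRY1* at 48.5 TPM against 32.9 to 34.7 TPM. *ELK3* was lower there, at 5.32 TPM against 7.75 to 8.21 TPM.

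The effect of treatment in H146 minus that in H82 passed the threshold for 7 members: *FOS* (2.28), *FOSB* (3.55), *EGR1* (1.88), *FOSL1* (-0.84), *FOSL2* (-2.19), *JUNB* (-2.23) and *JUND* (-1.54). Among the other named genes tested in both lines it was higher in H146 for *ZFP36L1* (3.01), *BTG2* (1.98), *ELK3* (1.62) and *SPRY1* (1.14), and lower for *CCND1* (-2.32), *DUSP10* (-1.65), *RPS6KA1* (-1.35) and *MAP2K2* (-0.53).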

How the results depend on the processing

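TPM carry no depth and 3 or 4 libraries per group limit the precision. The number of members called in H146 was 3 in place of 6 with no filter, under the median of ratios and under quantile normalization. With 1 library left out it ranged from 3 to 7 in H146 and from 5 to 8 in H82, and members that differed between the lines numbered 5 to 7. Quantile normalization left 4 differences between the lines. Same-numbered treated and untreated libraries did not deviate together (*r* of -0.11 to 0.03), and nothing in the labels pairs them. With the replicate block, 6 members were called in H82, 4 in H146 and 4 between the lines, where *FOS* (adjusted *p* = 0.0525), *FOSL1* (0.0704) and *EGR1* (0.0844) did not pass. The rise of *BATF3* in H82 did not pass with it either (0.0542), and 0 bZIP partners rose in H146.

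Signs turned as follows, and no value of the opposite sign passed the threshold. *FOS* in H146 was -0.025 with a pseudocount of 0.1, -0.29 under the median of ratios, -0.24 under quantile normalization, -0.26 with the replicate block, and -0.42 to 0.53 with 1 library left out. *JUN* in H82 was 0.35 under the median of ratios and -0.97 to 0.39 with 1 library left out, the lowest being without treated replicate 1, which passed. *EGR1* in H82 was 0.074 under the median of ratios and 0.66 under quantile normalization, and the difference between lines of *IER2* was -0.28 under the median of ratios. With 1 library left out, *ATF3* in H82 ranged from -1.95 (without treated replicate 1, which passed) to 0.23 and *ELK3* in H82 from -0.19 to 0.28, and *MAP2K2* in H146 was -0.22 under the median of ratios. *RPS6KA1* in H82 was 0.34 under the median of ratios, 0.16 under quantile normalization, 0.017 with library weights and -0.26 to 0.070 with 1 library left out. The cause was not tested. Of 764 refits of a single gene within a line, 665 kept both direction and side of the threshold, as did 152 of 188 between the lines.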

Other observations

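Some genes of the lists outside the rule for named genes were chosen after their values were seen. The ERK phosphatase gene *DUSP4* rose in H82 (0.78, adjusted *p* = 0.0197) and fell in H146 from 110 ± 4.25 to 21.8 ± 9.47 TPM (-2.36, adjusted *p* = 0.000299), and the effects differed between the lines (-3.14, SE 0.37, adjusted *p* = 2.30e-05). Another, *DUSP6*, rose in H146 from 3.35 ± 0.325 to 11.0 ± 2.11 TPM (1.44, adjusted *p* = 0.000470) and was below the filter in H82. Of the nuclear receptor genes of the immediate early list, *NR4A1* fell in both lines (-1.83 in H82, adjusted *p* = 0.000388, and -0.71 in H146, adjusted *p* = 0.00347), while *NR4A2* rose in H146 from 3.05 ± 1.30 to 17.5 ± 4.95 TPM (2.20, adjusted *p* = 0.000397). In H82 the log2 fold change of *NR4A2* was -0.62 (adjusted *p* = 0.0552), with every treated library below the untreated ones, and that of *NR4A3* was -0.25 (adjusted *p* = 0.333). *NR4A3* was below the filter in H146, with 0.124 ± 0.0646 TPM in untreated and 0.859 ± 0.758 TPM in treated libraries, all of the treated above the untreated. The kinase gene *SGK1* rose in H146 (2.46, adjusted *p* = 0.000101) and not detectably in H82 (0.07, SE 0.25, adjusted *p* = 0.838). *VIM*, the intermediate filament gene vimentin, rose in H82 from 7.49 ± 0.887 to 43.9 ± 0.280 TPM (2.41, adjusted *p* = 0.000108). It also rose in H146, where its mean went from 0.771 ± 0.151 to 2.04 ± 0.204 TPM (0.78, adjusted *p* = 0.00547).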
